A study of Mus musculus with 24 samples.

Results

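The heat shock chaperone genes described here are Hspa1a, Hspa1b, Hspa8, Hsp90aa1, Hsp90ab1, Hspd1, Hspe1, Hsph1 and Dnajb1, with Hsf1, the gene of a transcription factor that controls many of them. They are 10 of the 22009 named genes in an RNA sequencing table of mouse CD4+ T cells. The members were chosen by their values in these same libraries, since Hspa1a and Hspa1b were high at rest and lost in culture. Every comparison of the members between rest and culture is therefore a description with no test, and Hspa1a and Hspa1b are given no test over time in culture either.

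The cells were splenic CD4+ T cells from a pool of adult wild-type C57BL/6 mice, isolated by magnetic negative selection, and the question was how transcript levels move as they are activated and polarised. Resting cells gave 2 libraries, and 18 cultures gave 1 library for each of 3 conditions at 4, 8, 12, 16, 20 and 24 h. Th0 cultures were stimulated with anti-CD3e and anti-CD28. Th1 cultures had anti-IL-4 and recombinant IL-12 besides these, and Th2 cultures had anti-IL-12, anti-IFN-γ and recombinant IL-4 besides them. This pool is stated for the time course. In another 4 libraries, whose pool is not stated, the cells had been stimulated for 16 h before actinomycin, a drug that blocks transcription, was added for 0, 1, 2 or 4 h, and their skewing condition is not given. Values are RPKM, which scale the reads of a gene by the length of its transcript and by the mapped reads of the library. Mapped reads estimated from the steps between low values ran from 17512385 to 33017133 per library.

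All cultures of the time course came from 1 pool, so p-values measure only the spread between these libraries. By their labels the resting cells and the cultures of the time course carry different tags, and a difference in preparation cannot be told apart from activation. Among the cultures, 4 libraries stood apart from a fit of condition plus time. Their residual SDs were 0.24 for Th0 at 8 h, 0.22 for Th2 at 8 h, 0.21 for Th2 at 4 h and 0.21 for Th2 at 24 h on the log2 scale, and those of the other 14 ran from 0.10 to 0.17.

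Chaperones bind unfolded or partly folded proteins and use ATP to help them reach or regain their shape. The HSP70 proteins work with J-domain proteins, which deliver clients, and with nucleotide exchange factors, and they pass some clients to HSP90, which matures kinases and steroid receptors. HSF1 turns on many of these genes when proteins unfold, while other members, such as Hspa8 and Hsp90ab1, are made all the time, and lymphocytes that start to grow after activation raise protein synthesis and with it the load on chaperones.

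CD4 T cell markers were present in every library of the time course. The 13 CD4 T cell marker genes summed to 3093 and 3154 RPKM in the resting libraries, to 2668, 2744 and 2369 RPKM in the Th0, Th1 and Th2 cultures at 4 h, and to 2324, 2266 and 1910 RPKM at 24 h. Tcf7, a transcription factor of T cells, was the most abundant of them at 541 and 551 RPKM at rest, and none of the 13 was at 0. At 24 h 10 of the 13 were lower than at rest. Cd4 itself changed by a log2 of -1.045 at 4 h against rest (limma adjusted p = 0.00104). At 24 h its change was -0.70, under 2-fold (limma adjusted p = 0.00707). Both CD8 markers together came to 12.4 and 12.7 RPKM at rest. Transcripts of other cells were also present at rest, most of all those of red cells and macrophages, whose markers are given beside the genes they moved with. The study is not consistent on the cells used. Its methods call the cells of this sequencing naive, and for skewing cultures they describe red-cell lysis and a sort for naive cells, whereas the sample notes and the figure legend speak of purified CD4+ cells and the notes name only the magnetic selection.

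Hspa1a and Hspa1b encode the stress-inducible HSP70, and stand as neighbours on the minus strand of chromosome 17. In GRCm38 with GENCODE vM21, Hspa1a spans chr17:34969190-34972156 and Hspa1b chr17:34956436-34959238, each with 1 annotated transcript, and 9951 bases lie between them. Of the 50-base windows of their transcripts, 58.8% of those of Hspa1a and 62.3% of those of Hspa1b occur in the other gene too, so reads can be placed in either, and their values are not independent measurements. Their promoters are shown because the genes are neighbours with shared sequence, and no shared control is read from them. Both are RefSeq windows of 300 bases in GRCm38.p6, from 250 bases before to 50 after the start, minus strand, at chr17:34972107-34972406 for Hspa1a and chr17:34959189-34959488 for Hspa1b. Capitals mark a match to the 2-unit heat shock element searched for.
Hspa1a: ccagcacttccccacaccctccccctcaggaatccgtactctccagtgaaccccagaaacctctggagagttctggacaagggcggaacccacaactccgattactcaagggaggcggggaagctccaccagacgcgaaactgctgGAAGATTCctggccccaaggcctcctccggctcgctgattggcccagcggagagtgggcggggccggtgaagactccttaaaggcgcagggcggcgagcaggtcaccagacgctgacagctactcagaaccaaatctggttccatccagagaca
Hspa1b: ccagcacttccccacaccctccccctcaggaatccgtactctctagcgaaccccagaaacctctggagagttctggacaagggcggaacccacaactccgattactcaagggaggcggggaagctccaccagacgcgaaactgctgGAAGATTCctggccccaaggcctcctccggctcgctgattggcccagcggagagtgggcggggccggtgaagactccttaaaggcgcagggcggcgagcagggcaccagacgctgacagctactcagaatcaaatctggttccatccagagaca
The windows are identical at 296 of 300 positions. Counted from 1 at the 5′ end of the printed sequence, with the base of Hspa1a first, the differences are C44T, T47C, T249G and C276T.

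The heat shock elements were searched as letters on both strands, as 2 units (GAANNTTC or TTCNNGAA) and as 3 units (GAANNTTCNNGAA or TTCNNGAANNTTC, which contain the shorter ones). The 2-unit letters occurred in 15.1% of 32851 RefSeq promoter windows of the same length and the 3-unit letters in 0.603%. Both Hspa1a and Hspa1b hold 1 match to 2 units and 0 to 3 units in these windows. Only exact letters were counted. An element with a changed base is missed, so a count of 0 does not show that an element is absent. RefSeq windows were available for 6 of the 10 members, in 9 sequences. The members without one are Hspa8, Hsp90aa1, Hsp90ab1 and Hsf1.

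Hspa1a was at 218 and 221 RPKM in the resting libraries, 219 ± 2.35 (SD, n = 2). At 4 h it was at 15.2, 13.1 and 19.4 RPKM in Th0, Th1 and Th2, at 8 h at 6.70, 5.62 and 4.88, at 12 h at 2.08, 1.74 and 2.16, and at 24 h at 0.874, 1.02 and 0.555 RPKM. Each of the 18 cultures lay below both resting libraries, and the later time points lay lower than 4 h. Hspa1b was at 322 and 329 RPKM at rest, 326 ± 5.31 (SD, n = 2), then at 22.4, 18.4 and 27.6 RPKM at 4 h, at 10.1, 10.1 and 7.82 at 8 h, at 3.75, 2.88 and 3.19 at 12 h, and at 1.94, 1.27 and 1.10 RPKM at 24 h. It followed the same course, with all 18 cultures below rest. The resting mean was 13.8 times the 4 h mean for Hspa1a and 14.3 times for Hspa1b, and 268 and 227 times the 24 h mean. Those contrasts chose the genes and nothing is read from them. Among all 10897 genes tested, 7.97% fell at least 2-fold at 4 h against rest and 17.4% at 24 h, while 2.61% and 12.7% rose.

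**Figure D1:**
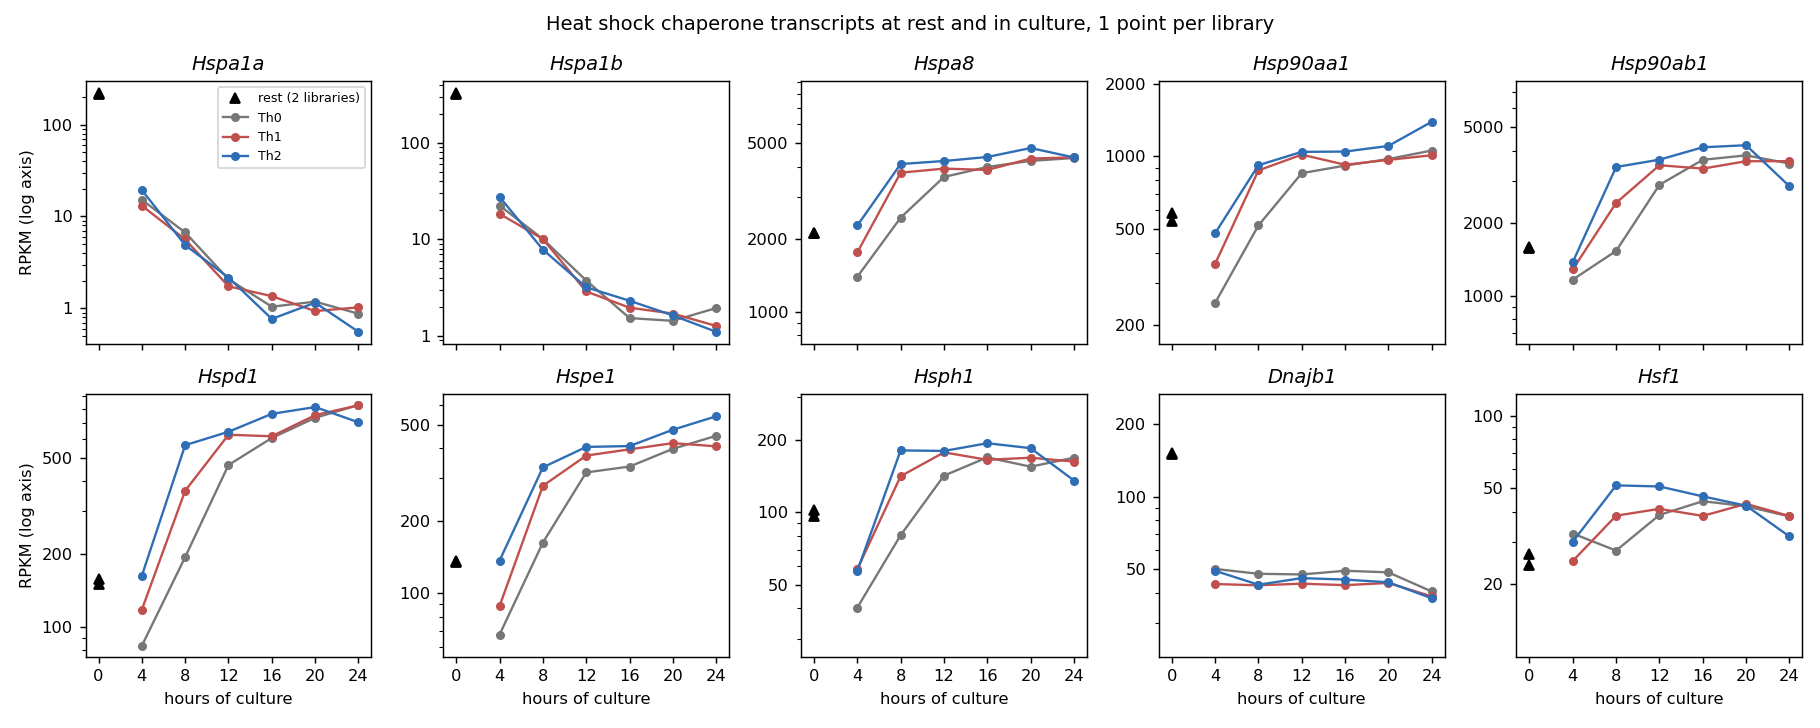
RPKM (log axis) of the 10 heat shock chaperone genes by hours of culture, 1 point per library, with both resting libraries as triangles at 0 h. Hspa1a goes from 218 and 221 RPKM at rest to between 0.555 and 1.02 at 24 h, while Hspd1 goes from 157 and 150 to between 702 and 828.

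The late values of the pair rest on few reads. With the annotated lengths of 2967 and 2803 bases, Hspa1a in the Th2 culture at 24 h comes to about 42 reads, with a 95% Poisson interval of 0.400 to 0.750 RPKM, and Hspa1b there to about 79 reads, with an interval of 0.872 to 1.37 RPKM. Such intervals cover counting error only. The length the authors used for these genes is not known, and no length from 200 to 20000 bases turned the values of either gene into whole reads in all libraries at a tolerance of 0.02 reads, so the read numbers and intervals are approximate. The ratio of Hspa1b to Hspa1a ran from 0.810 to 3.01 over the 24 libraries, with a median of 1.48. In the 5 libraries where both were at 10 RPKM or more, it stayed between 1.40 and 1.49. In Th1 at 8 h, with about 459 and 777 reads, it was 1.79, and in Th2 at 16 h it was 3.01, with intervals of 0.582 to 0.993 RPKM for Hspa1a and 1.97 to 2.69 RPKM for Hspa1b. The cause of this spread was not tested.

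Markers of other cells fell along with the pair. The 17 measured macrophage markers summed to 1034 and 1048 RPKM at rest, to 110, 91.2 and 130 RPKM in Th0, Th1 and Th2 at 4 h, and to 30.0, 30.4 and 21.6 RPKM at 24 h, and all 17 were lower at 24 h than at rest. The most abundant of them, Hmox1, which breaks down haem, went from 253 and 251 RPKM at rest to 12.0, 12.6 and 9.02 RPKM at 24 h, and none of the 17 was at 0 at rest. The 10 measured red-cell markers summed to 39350 and 42900 RPKM at rest and were still at 34450, 29600 and 47400 RPKM at 4 h, when the pair had already dropped, then fell to 207, 146 and 215 RPKM at 24 h. Within that sum 3 of the 10 markers fell and 0 rose at least 2-fold at 4 h against rest in limma, with a median log2 change of -0.74. In bulk RNA, fewer cells of a type and less RNA per cell cannot be told apart, and the part of these other cells in the values of Hspa1a and Hspa1b was not tested.

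**Figure D2:**
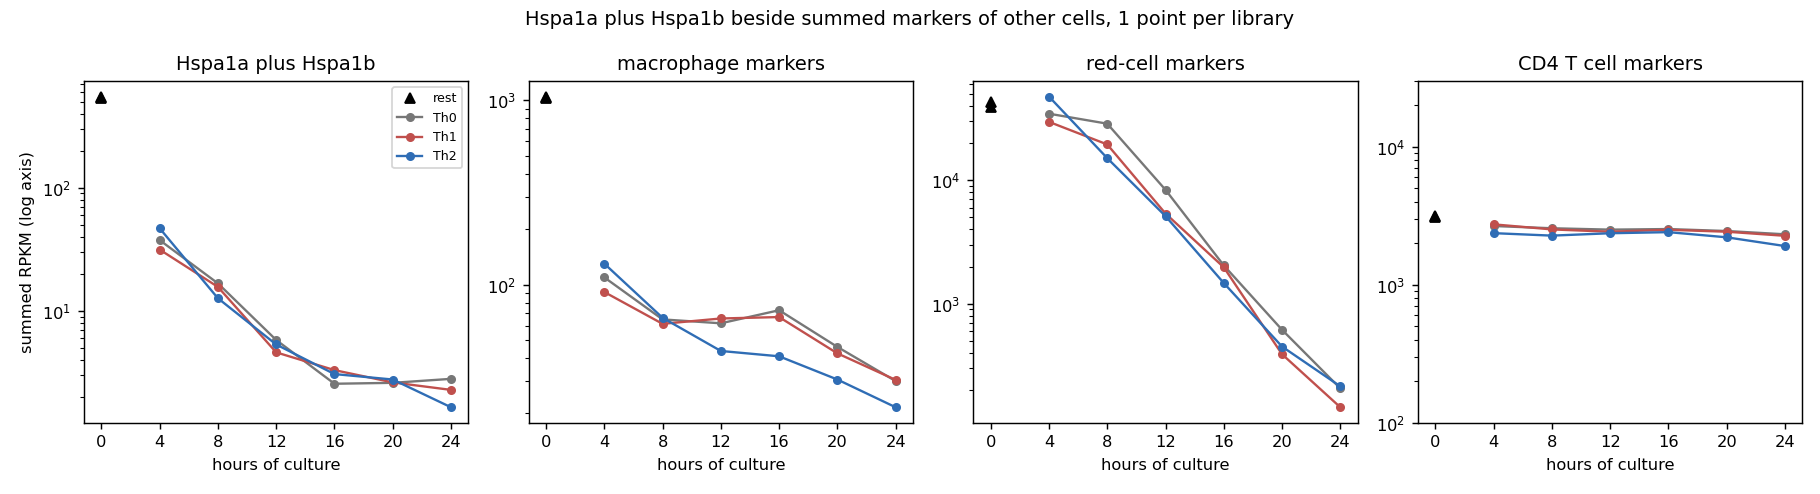
Summed RPKM (log axis) of Hspa1a plus Hspa1b and of macrophage, red-cell and CD4 T cell markers by hours of culture, 1 point per library. The macrophage sum falls from 1034 and 1048 RPKM at rest to between 91.2 and 130 at 4 h, while the red-cell sum is still between 29600 and 47400 at 4 h. Of the 10 red-cell markers, 3 had fallen at least 2-fold by then in limma.

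Immediate-early genes, which respond to stimuli and to the handling of cells within minutes, were mixed over the same interval. Fos, a subunit of the AP-1 factor, was at 531 and 551 RPKM at rest, at 28.8, 27.5 and 42.1 RPKM in Th0, Th1 and Th2 at 4 h and at 5.95, 5.63 and 6.50 RPKM at 24 h. Of the 24 immediate-early genes tested, 9 fell and 5 rose at 4 h against rest. In limma, Fos changed by a log2 of -4.05 (adjusted p = 3.38e-09) and Jun, its partner, by -3.59 (adjusted p = 0.000502). Egr3 and Egr2, zinc finger factors induced through the T cell receptor, rose by 3.38 (adjusted p = 1.12e-07) and 3.19 (adjusted p = 4.09e-06). At 24 h against rest 14 fell and 2 rose, among them Fos at -6.38 (adjusted p = 1.20e-12) and Fosb at -5.44 (adjusted p = 2.57e-13). The part of this response in the values of the pair was not tested.

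The genes whose pattern over the 24 libraries was most like that of Hspa1a plus Hspa1b were Trak2 (Pearson r = 0.98), Gm20481 (0.98), Slc25a37 (0.97), C1qc (0.97) and Pglyrp2 (0.97), of 8435 compared. C1qc encodes a complement chain made by macrophages and Slc25a37 a mitochondrial iron carrier of red-cell precursors. Fos ranked 32nd at 0.95 and Dnajb4, a J-domain gene, 83rd at 0.93. Of the members, Dnajb1 was nearest at 0.80, rank 742. Over the 20 libraries of the time course alone, 1 of the 5 closest genes, Gm20481, was among the closest 5 again, and 2 were when the filter was lowered to a mean of 1 RPKM. These likenesses are descriptions, since the libraries of the time course share their pool and these genes were all highest at rest.

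Hspa8 encodes the constitutive HSP70, HSC70, and lies at chr9:40800984-40810087 on the plus strand. It was at 2120 and 2122 RPKM at rest. Cultures at 4 h were at 1400, 1767 and 2283 RPKM in Th0, Th1 and Th2, and those at 24 h at 4346, 4371 and 4370 RPKM, the highest value being 4779 RPKM in Th2 at 20 h. At 4 h 2 of the 3 cultures lay below rest, and at 24 h all 3 lay above it, at 2.06 times the resting mean. Of its 50-base windows 39.4% occur in other genes, 34.6% in Gm15459, and how the authors placed such reads is not known.

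The HSP90 pair of the cytosol, Hsp90aa1, the inducible form, and Hsp90ab1, the constitutive form, went the same way. Hsp90aa1 (chr12:110690605-110702728, minus strand) was at 585 and 542 RPKM at rest, at 247, 359 and 481 RPKM in Th0, Th1 and Th2 at 4 h, and at 1058, 1012 and 1392 RPKM at 24 h. Hsp90ab1 (chr17:45567775-45573271, minus strand) was at 1594 and 1577 RPKM at rest, at 1170, 1291 and 1384 RPKM at 4 h and at 3540, 3619 and 2849 RPKM at 24 h. For both genes all 3 cultures at 4 h lay below rest and all 3 at 24 h above it, at 2.05 and 2.10 times the resting mean. Windows shared with other genes made up 47.5% in Hsp90aa1, 41.8% with Gm12346, and 3.44% in Hsp90ab1.

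Hspd1 and Hspe1 encode HSP60 and HSP10, the barrel and the lid of the mitochondrial chaperonin, and are divergent neighbours on chromosome 1. Hspd1 spans chr1:55077835-55088243 on the minus strand and Hspe1 chr1:55088132-55091307 on the plus strand, and the spans share 112 bases. The promoter window of Hspe1 (chr1:55087898-55088197, plus strand) is shown because it also covers most of a window of Hspd1 (chr1:55087883-55088182, minus strand), the same DNA read the other way. Capitals mark overlapping heat shock elements, with 2 matches to 3 units and 3 to 2 units, and another window of Hspd1 holds 0 of either.
Hspe1: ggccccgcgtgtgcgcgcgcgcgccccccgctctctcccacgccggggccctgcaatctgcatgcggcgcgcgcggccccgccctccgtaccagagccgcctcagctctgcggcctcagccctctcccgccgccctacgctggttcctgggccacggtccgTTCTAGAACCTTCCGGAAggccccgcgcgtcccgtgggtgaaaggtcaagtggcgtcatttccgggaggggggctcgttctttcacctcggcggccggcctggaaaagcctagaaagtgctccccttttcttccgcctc
At rest Hspd1 was at 157 and 150 RPKM and Hspe1 at 135 and 136 RPKM. Hspd1 was at 83.3, 118 and 162 RPKM in Th0, Th1 and Th2 at 4 h and at 828, 826 and 702 RPKM at 24 h. Hspe1 was at 67.5, 88.6 and 137 RPKM at 4 h and at 449, 406 and 541 RPKM at 24 h. Both were below rest in the Th0 and Th1 cultures at 4 h and above it in all cultures from 8 h, and at 24 h stood at 5.13 and 3.43 times their resting means. Of the 50-base windows of Hspd1, 42.1% occur in other genes, 38.0% in Hspd1-ps3, and of those of Hspe1 22.8%, 17.9% in AC117239.2.

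Hsph1 encodes HSP110, a nucleotide exchange factor of HSP70, at chr5:149614287-149636376 on the minus strand. None of its 50-base windows occurs in another gene. Its promoter window (chr5:149636266-149636565, minus strand) is shown because it too holds a match to 3 units, with 3 matches to 2 units, in capitals. Unlike those of Hspe1, its match to 3 units lies in the 50 bases after the start.
Hsph1: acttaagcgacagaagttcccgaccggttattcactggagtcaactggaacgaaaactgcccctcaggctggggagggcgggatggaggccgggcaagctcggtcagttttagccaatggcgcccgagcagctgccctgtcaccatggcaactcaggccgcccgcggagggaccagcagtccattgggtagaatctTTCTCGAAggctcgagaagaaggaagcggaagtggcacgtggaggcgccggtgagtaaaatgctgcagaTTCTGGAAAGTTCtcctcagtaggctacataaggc
Hsph1 was at 102 and 96.1 RPKM at rest, at 40.3, 58.2 and 57.2 RPKM in Th0, Th1 and Th2 at 4 h and at 168, 162 and 135 RPKM at 24 h. The 4 h cultures all lay below rest and the 24 h cultures all above it, at 1.57 times the resting mean.

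Dnajb1 encodes HSP40, the J-domain partner of the inducible HSP70, and Hsf1 the transcription factor. Dnajb1 (chr8:83608193-83612653, plus strand) was at 152 and 151 RPKM at rest, at 50.2, 43.5 and 49.4 RPKM in Th0, Th1 and Th2 at 4 h and at 40.5, 38.7 and 38.0 RPKM at 24 h. It was lower in all 18 cultures than at rest, like Hspa1a and Hspa1b, but the resting mean was only 3.18 times the 4 h mean and 3.88 times the 24 h mean. Both of its promoter windows hold 0 exact matches to the letters of either element. Hsf1 (chr15:76477422-76501913, plus strand) was at 24.0 and 26.7 RPKM at rest, at 32.5, 25.0 and 30.1 RPKM at 4 h and at 38.2, 38.4 and 31.6 RPKM at 24 h. Its 24 h cultures were all above rest, at 1.42 times the mean, and none of the 18 cultures was below both resting libraries.

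By level at rest the members ran from Hspa8 through Hsp90ab1, Hsp90aa1, Hspa1b, Hspa1a, Hspd1, Dnajb1, Hspe1 and Hsph1 to Hsf1. The means of Hspd1 (153 ± 5.14 RPKM, SD, n = 2) and Dnajb1 (152 ± 1.01 RPKM, SD, n = 2) did not differ beyond their spread, and those of the other neighbours did. This spread between libraries leaves out reads shared with other genes and the transcript lengths used. The order is therefore only that of the RPKM values. At 24 h the pair of Hspa1a and Hspa1b held the lowest means, 0.818 and 1.44 RPKM.

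Within culture, 6 of the 8 members tested rose at least 2-fold from 4 h to 12 h at an adjusted p under 0.05 in limma. The comparison asks what happens after the first hours and uses no resting library. Over all 10737 genes tested, 8.23% rose and 8.63% fell by this rule, and the median log2 change was 1.43 for the 8 members and -0.03 for all genes. The mitochondrial pair rose most, Hspd1 by 2.29 ± 0.22 (SE) on the log2 scale (limma adjusted p = 9.83e-07) and Hspe1 by 1.95 ± 0.16 (limma adjusted p = 2.20e-07). Hsph1 rose by 1.68 ± 0.18 (limma adjusted p = 2.28e-06), Hsp90aa1 by 1.47 ± 0.16 (limma adjusted p = 1.92e-06), Hsp90ab1 by 1.38 ± 0.19 (limma adjusted p = 1.68e-05) and Hspa8 by 1.14 ± 0.14 (limma adjusted p = 7.80e-06). Each of the 6 was higher at 12 h than at 4 h in all 3 conditions. Hsf1 was at 0.57 ± 0.17 (limma adjusted p = 0.00820), under 2-fold, and Dnajb1 at -0.06 ± 0.08 (limma adjusted p = 0.542).

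Most of the rise of these 6 came before 12 h. From 12 h to 24 h, 0 of the 8 members passed in limma, 2 of them having an unadjusted p under 0.05, while 3.19% of all genes rose and 2.53% fell. Hspd1 was at 0.45 ± 0.22 (limma adjusted p = 0.143) and Dnajb1 at -0.23 ± 0.08 (limma adjusted p = 0.0385), under 2-fold. From 4 h to 24 h the same 6 members rose, against 13.3% of all genes rising and 13.0% falling, Hspd1 by 2.74 ± 0.22 (limma adjusted p = 4.19e-08) and Hspe1 by 2.30 ± 0.16 (limma adjusted p = 8.44e-09). Dnajb1 was at -0.28 ± 0.08 (limma adjusted p = 0.00416), under 2-fold, and Hsf1 at 0.30 ± 0.17 (limma adjusted p = 0.119). The red-cell markers fell through these hours in all 10 genes, and their haemoglobin took 5.83% of the summed RPKM in Th0 at 4 h and 0.0333% at 24 h. Rescaled without the haemoglobin genes, a setting chosen after seeing the data, 6 members still rose in both comparisons, beside an all-gene median of -0.11 from 4 h to 12 h.

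Between conditions, 5 of the 10 members were higher in Th2 than in Th0 by less than 2-fold, and none passed the 2-fold threshold. The comparison takes the 6 time points as pairs. In limma 0 of 10 passed at 2-fold in Th2 against Th0, in Th2 against Th1 and in Th1 against Th0, with 6, 1 and 4 at an unadjusted p under 0.05, and 2.01%, 1.96% and 0.494% of all genes passed. With no fold minimum, 5 of 10 were higher in Th2 than in Th0, where 12.9% of all genes were, and 0 of 10 were higher in Th2 than in Th1 or in Th1 than in Th0, where 3.49% and 0.522% of all genes were. Lower by this rule were 0 of 10 in each of the 3 comparisons, beside 16.7%, 8.71% and 1.75% of all genes in Th2 against Th0, Th2 against Th1 and Th1 against Th0. Hspe1 was higher in Th2 by 0.53 ± 0.11 (limma adjusted p = 0.00303) and Hsp90aa1 by 0.47 ± 0.11 (limma adjusted p = 0.00541), each at 6 of 6 time points, and these calls were kept under all 17 alternatives. Hspd1 was at 0.53 ± 0.16 (limma adjusted p = 0.0204), Hspa8 at 0.33 ± 0.10 (limma adjusted p = 0.0227) and Hsph1 at 0.36 ± 0.13 (limma adjusted p = 0.0474), higher at 5, 6 and 5 of 6 time points, and these calls were lost under 5, 6 and 9 of the 17. Leaving out 4 h, 8 h or 12 h loses all 3 and brings the count of 5 down to 2, and leaving out 16 h or 20 h loses that of Hsph1 (limma adjusted p = 0.0698 and 0.0816). The all-gene count with no fold minimum, either way, moved too. In Th2 against Th0 it went from 3178 to 2347, 2175 and 1995 without 4 h, 8 h and 12 h, and to 1702 without the Th1 cultures. In Th1 against Th0 it went from 244 to 78 without 12 h. Without the 8 h time point the differences were 0.33 for Hspd1 (limma adjusted p = 0.0737, range over alternatives 0.00506 to 0.0844) and 0.19 for Hsph1 (limma adjusted p = 0.184, range 0.00880 to 0.184).

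The remaining members gave no call. Hsp90ab1 was at 0.29 ± 0.13 (limma adjusted p = 0.111), with a range of adjusted p over the alternatives of 0.0199 to 0.453. It gained a call in 2 of 17, at 0.41 (limma adjusted p = 0.0241) without the 24 h time point and at 0.40 (limma adjusted p = 0.0199) without the Th2 library at 24 h, a setting chosen after seeing the data. Hsf1 was at 0.16 ± 0.12, Dnajb1 at -0.10 ± 0.05, Hspa1a at -0.12 ± 0.13 and Hspa1b at -0.04 ± 0.13, with limma adjusted p of 0.324, 0.202, 0.525 and 0.835. Dnajb1 was below Th0 at all 6 time points in the Th2 culture and in the Th1 culture, where the difference was -0.15 ± 0.05 (limma adjusted p = 0.192). Hspa1a and Hspa1b, which a Th2 or Th1 skew left without a call, were above Th0 in Th2 at 2 and 3 of 6 time points.

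Th2 stood furthest above Th0 at 8 h for Hspa8, Hsp90ab1, Hspd1, Hspe1, Hsph1 and Hsf1, where each condition has 1 library and no test was made. Hspd1 was then at 194, 366 and 565 RPKM in Th0, Th1 and Th2, Hsp90ab1 at 1538, 2432 and 3425, Hspe1 at 162, 279 and 332, and Hsph1 at 80.4, 141 and 180 RPKM. These 4 of 10 members were at least 2-fold higher in Th2 than in Th0, as were 5.90% of all 10737 genes and 442 of the 884 genes that rose from 4 h to 12 h, which include 6 of the members. Th0 was lowest and Th2 highest for 7 of 10 members at 8 h, for 32.3% of all genes and for 84.7% of the 884. At 12 h 0 of 10 members were 2-fold higher. At 24 h Hspd1, Hsp90ab1, Hsph1, Hsf1 and Dnajb1 were lower in Th2 than in Th0, as were Hspa1a and Hspa1b on few reads. The 884 genes were chosen by their rise and include the members that were 2-fold higher, so the shares are not independent and no likeness is read from them. The Th0 and Th2 libraries at 8 h are among those that stood apart. Red-cell markers at 8 h summed to 28610 RPKM in Th0, 19430 in Th1 and 15060 in Th2, and their part in the order of the conditions was not tested.

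**Figure D3:**
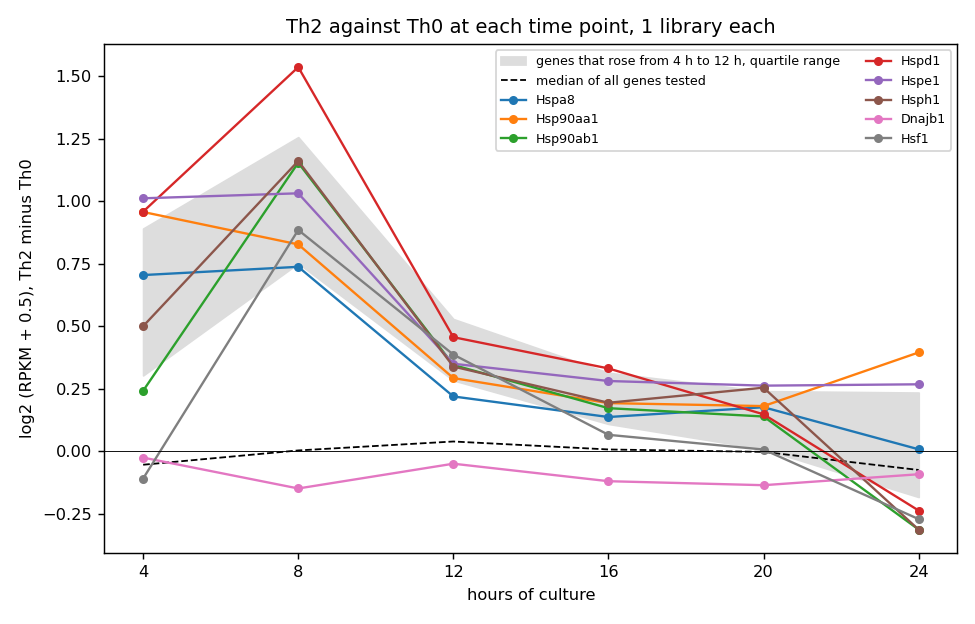
Difference of log2(RPKM + 0.5) between Th2 and Th0 for 8 members by hours of culture, 1 library each, with the quartile range of the 884 genes that rose from 4 h to 12 h (grey) and the median of all 10737 genes (dashed). Hspd1 peaks at 8 h, where Th2 was 2.91 times Th0, and the differences narrow by 12 h.

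After actinomycin, which shows how fast transcripts go once no more are made, Hspa8 fell further than nearly all genes. RPKM is a share of a library, so a transcript that goes at the pace of the average one shows no change. Each time has 1 library and no test was made, and a two-sided exact permutation of 4 times cannot reach 0.05. Hspa8 was at 4056, 2943, 1616 and 915 RPKM at 0, 1, 2 and 4 h, a log2 ratio of -2.15 from 0 h to 4 h, and 0.227% of the 10571 genes compared had a lower ratio. Hsp90aa1 went from 1204 to 532 RPKM (-1.18), Hsph1 from 162 to 72.6 (-1.16) and Dnajb1 from 32.9 to 15.1 (-1.12), with 4.26%, 4.44% and 4.81% of genes lower. A constitutive member, Hspa8, and inducible ones are both among these. Hspd1 went from 608 to 476 RPKM (-0.35), Hsp90ab1 from 3669 to 3776 (0.04), Hspe1 from 521 to 554 (0.09) and Hsf1 from 38.7 to 60.2 (0.63). The median over all genes was -0.00, with quartiles of -0.41 and 0.37, so Hspd1, Hsp90ab1 and Hspe1 lay inside them and Hsf1 above. For Hsp90ab1 the sign turned with the scaling, to -0.01 under median-of-ratios and to -0.26 under quantile normalization.

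**Figure D4:**
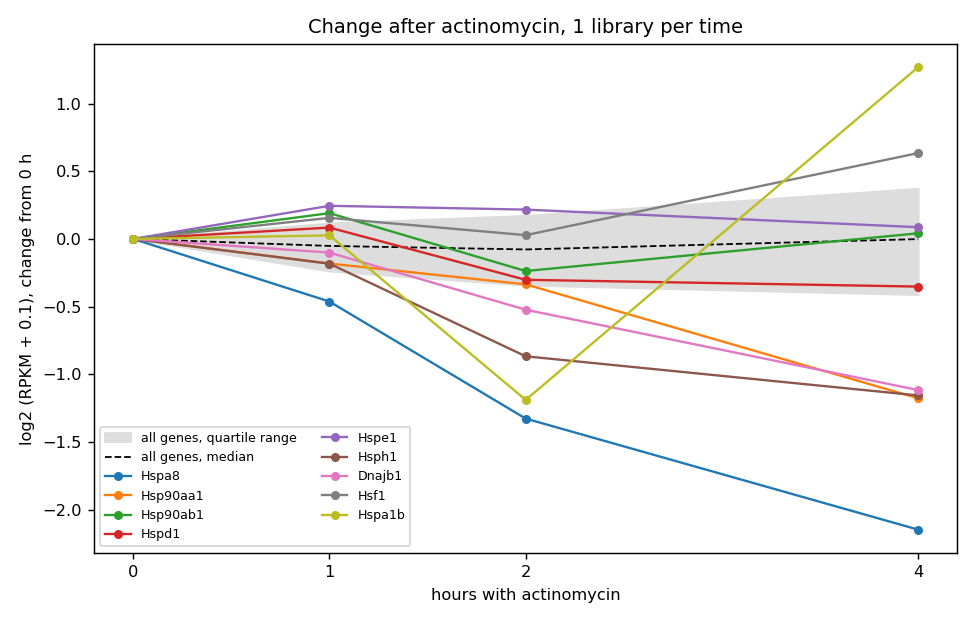
Change of log2(RPKM + 0.1) from 0 h in 9 members by hours with actinomycin, 1 library per time, with the median (dashed) and quartile range (grey) of 10571 genes. Hspa8 reaches -2.15 at 4 h, and Hsp90aa1, Hsph1 and Dnajb1 lie between -1.18 and -1.12. Hspa1b, on few reads, passed the filter on the mean only through its 4 h value, and nothing is read from its 1.27.

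Hspa1a and Hspa1b were low in these libraries, and higher at 4 h than at 0 h. Hspa1a was at 0.693, 0.587, 0.427 and 1.41 RPKM and Hspa1b at 0.917, 0.936, 0.346 and 2.35 RPKM, about 53, 37, 24 and 76 and about 66, 55, 18 and 119 reads. The Poisson intervals at 0 h and at 4 h were 0.519-0.907 and 1.11-1.77 RPKM for Hspa1a and 0.709-1.17 and 1.95-2.82 RPKM for Hspa1b. They cover counting error only and leave out the spread between libraries, so no difference between the times is read from them. Hspa1a had a mean under 1 RPKM and was given no ratio. Hspa1b reached that mean only through its 4 h value, being under 1 RPKM at 0, 1 and 2 h. Its log2 ratio of 1.27, or 1.01 with a pseudocount of 0.5, is therefore set by the value it describes, and no rank among genes is read from it. Both were lowest at 2 h, and the cause of the higher values at 4 h was not tested. Against the 16 h cultures, the actinomycin library at 0 h lay within their range for Hspa8, Hsp90ab1, Hspd1 and Hsf1, above it for Hsp90aa1 and Hspe1, and below it for the other 4 members. B cell markers summed to 3.87 RPKM there and to 25.9, 20.2 and 36.3 RPKM in Th0, Th1 and Th2 at 16 h, and NK cell markers to 13.7 RPKM beside 33.7, 39.8 and 30.3 RPKM. Other lists were higher there, macrophage markers at 87.0 RPKM beside 72.7, 66.7 and 40.9 and red-cell markers at 2534 beside 2042, 1972 and 1472. Granulocyte markers were at 18.5 RPKM beside 7.17, 6.72 and 3.51, and platelet markers at 11.4 beside 6.18, 8.02 and 4.00. The start of this series thus differed from those cultures.

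Other genes of the chaperone network come from lists of families and partners, some genes standing on more than 1. At 4 h against rest 2.61% of all genes tested rose and 7.97% fell, and the lists were not tested against these shares. Of 8 other HSP70 genes tested 1 fell, Hspa1l, a neighbour of the inducible pair, at -2.16 (limma adjusted p = 3.24e-07). Of 39 J-domain genes 1 rose and 3 fell, with Dnajc12 at 1.20, Dnajb9, of the endoplasmic reticulum, at -1.76, and Dnajb4 at -1.74 (limma adjusted p = 0.00114, 2.99e-08 and 1.64e-06). Of 12 exchange factors and other partners of HSP70 3 fell, with Sil1 at -1.59 and Bag2 at -1.31 (limma adjusted p = 4.10e-05 and 4.76e-05). Among 23 HSP90 partners, 14 mitochondrial protein quality genes and the 3 tested genes of other heat shock factors and their binding proteins (Hsf2, Hsbp1 and Hsf2bp) 0 passed in limma, with 8, 3 and 1 at an unadjusted p under 0.05, and their medians were -0.01, -0.08 and 0.58 beside -0.04 for all genes. Of 12 stress-inducible genes 3 fell and 0 rose, Hmox1 at -2.91 (limma adjusted p = 1.61e-08) and Dnajb4 among them.

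At 24 h against rest, where 12.7% of all genes rose and 17.4% fell, 10 of the 23 partners of HSP90 rose, 13 did not pass and 0 fell, with a median log2 change of 0.57 beside -0.04 for all genes, and Tomm70a, a receptor of mitochondrial import, rose by 1.58 and Stip1, which links HSP70 to HSP90, by 1.52 (limma adjusted p = 2.89e-05 and 5.11e-06). Of 14 mitochondrial genes 4 rose and 0 fell, with Hspa9, the HSP70 of the matrix, at 1.95 and the protease subunit Clpp at 1.42 (limma adjusted p = 2.58e-06 and 9.50e-05). Of the 8 HSP70 genes 3 rose and 1 fell, with Hspa4, of the HSP110 group, at 1.69 and Hspa1l at -1.86 (limma adjusted p = 2.10e-06 and 4.68e-07). Of 39 J-domain genes 3 rose and 5 fell, and a difference from the all-gene shares was not tested. Dnajc2, of the ribosome, was at 1.37 and Dnajc15 at 1.16 against Dnajb4 at -2.75 and Dnajb9 at -2.73 (limma adjusted p = 3.98e-07, 1.37e-05, 1.21e-09 and 1.56e-11). Of the 12 exchange factors and other HSP70 partners 3 rose and 1 fell, with Hspbp1 at 1.66, St13, which steadies HSP70 on its client, at 1.27 and Bag3 at -1.48 (limma adjusted p = 3.01e-05, 7.70e-06 and 1.90e-06). The factor gene Hsf2 rose by 1.50 (limma adjusted p = 5.56e-08), and the binding protein genes Hsbp1 and Hsf2bp did not pass. The 12 stress-inducible genes split, 5 rising and 4 falling, from Cacybp at 1.66 to Hmox1 at -4.44 (limma adjusted p = 7.86e-06 and 1.02e-11). Hmox1 is also on the macrophage list, whose 14 tested genes all fell.

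Against rest the all-gene median and the balance of calls moved with the scaling. At 24 h the median was -0.04, and it was 0.10 under median-of-ratios, 0.13 under quantile normalization and -0.13 when rescaled without the haemoglobin genes. At 4 h it was -0.04, and 0.06 with quantile normalization. Calls at 4 h were 284 up and 868 down, and 551 up and 716 down with quantile normalization, and at 24 h 1389 up and 1891 down, and 1864 up and 1586 down.

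From 4 h to 24 h in culture, where 13.3% of all genes rose and 13.0% fell, 10 of the 23 HSP90 partners rose, 13 did not pass and 0 fell, with a median of 0.80 beside 0.00 for all genes, Fkbp4, an immunophilin, by 1.64 and Nudc by 1.53 (limma adjusted p = 1.17e-07 and 5.05e-07). Of 14 mitochondrial genes 6 rose and 0 fell, with Hspa9 at 1.80 and Trap1, the mitochondrial HSP90, at 1.44 (limma adjusted p = 1.28e-07 and 5.17e-08). Of the 8 HSP70 genes 2 rose, Hspa9 and Hspa4, the latter by 1.33 (limma adjusted p = 1.17e-06). Of the 12 exchange factors and other HSP70 partners 4 rose and 0 fell, with Bag2 at 1.60 and Hspbp1 at 1.47 (limma adjusted p = 9.53e-08 and 8.23e-07). For J-domain genes the rising share was near that of all genes, 5 of 39, and 2 fell, Dnajc15 at 1.28 and Dnajc19 at 1.24, both of mitochondrial import, against Dnajb2 at -1.24 and Dnajb4 at -1.01 (limma adjusted p = 1.15e-07, 7.89e-06, 1.58e-05 and 3.66e-06). The call of Dnajb4 was lost under 5 of 13 alternatives, which took it as far as -0.90, and that of Dnajb2 under 1. Of the 9 small heat shock genes 1 was tested, Hspb6, at -1.01 (limma adjusted p = 8.71e-05), a call lost under 5 of 12 alternatives, down to -0.75 with quantile normalization. Of Hsf2, Hsbp1 and Hsf2bp 0 passed in limma from 4 h to 24 h, with 1 at an unadjusted p under 0.05. Of 12 stress-inducible genes 5 rose and 2 fell, with Cacybp at 1.90 and Hmox1 at -1.53 (limma adjusted p = 7.36e-09 and 1.90e-06), and of 24 immediate-early genes 13 fell and 0 rose, with Klf2, a factor of resting T cells, at -3.25 and Fos at -2.33 (limma adjusted p = 3.14e-10 and 9.58e-09).

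**Figure D5:**
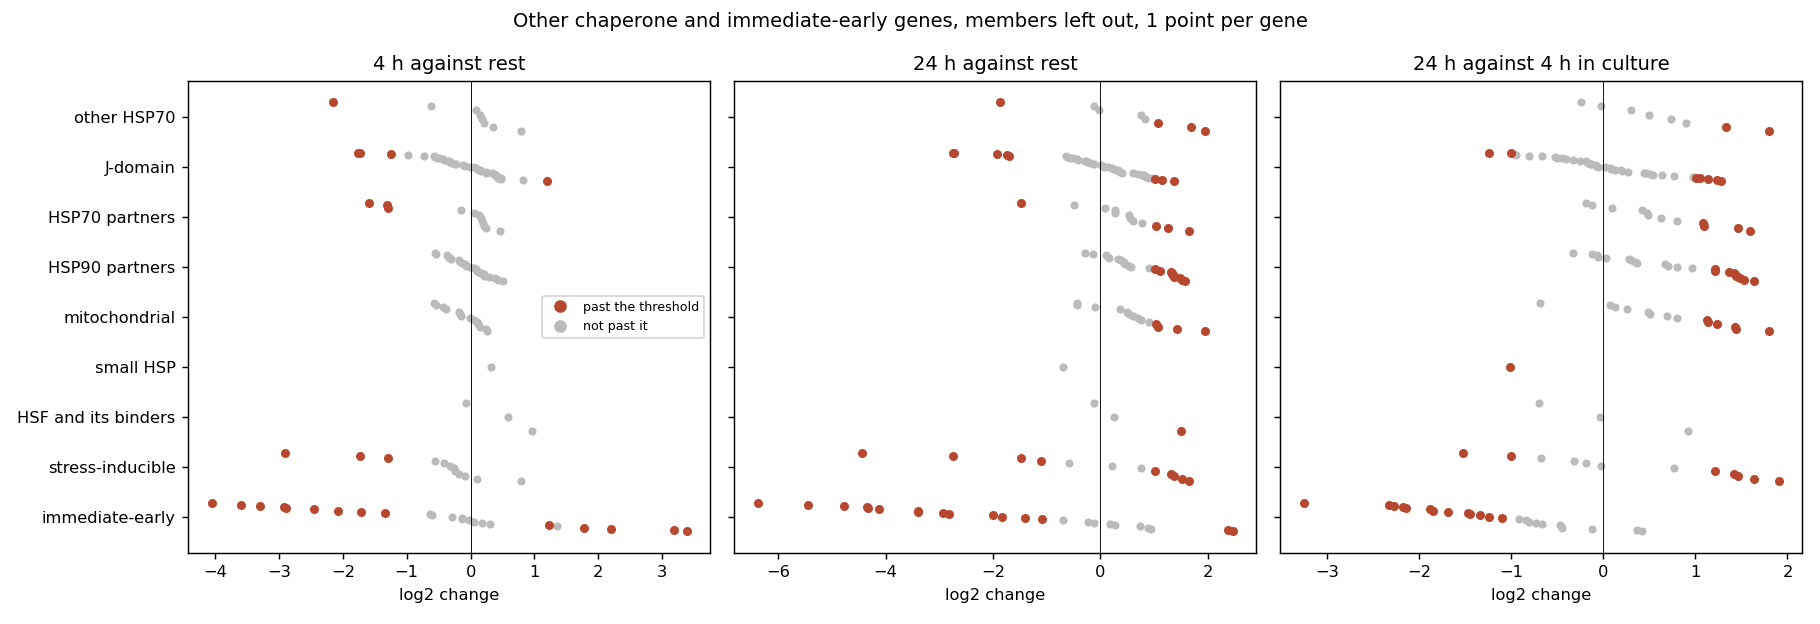
Log2 changes of the genes on 9 lists of chaperone, heat shock factor, stress-inducible and immediate-early genes (members left out), 1 point per gene, in 3 comparisons (HSP70 partners include the exchange factors), with genes past the threshold in red. Among the 23 HSP90 partners 0 pass at 4 h against rest, 10 rise at 24 h against rest and 10 rise from 4 h to 24 h.

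Between conditions 0 genes of these chaperone lists passed the threshold in limma, as with the members. In Th2 against Th0, 6 of 8 HSP70 genes, 11 of 39 J-domain genes, 6 of 12 exchange factors and other HSP70 partners, 15 of 23 HSP90 partners, 9 of 14 mitochondrial genes, 6 of 12 stress-inducible genes, 1 of 1 small heat shock gene and 0 of Hsf2, Hsbp1 and Hsf2bp had an unadjusted p under 0.05. With no fold minimum, where 12.9% of all genes were higher in Th2 than in Th0 and 16.7% lower, 9 of 23 HSP90 partners, 8 of 14 mitochondrial genes, 4 of 8 HSP70 genes and 4 of 12 exchange factors and other HSP70 partners were higher and 0 of these lists lower. Of 39 J-domain genes 4 were higher and 3 lower, of 12 stress-inducible genes 4 were higher and 1 lower, the small heat shock gene Hspb6 was lower, and 0 of Hsf2, Hsbp1 and Hsf2bp differed by this rule. The calls were among the immediate-early genes. In Th2 against Th0, Atf3 was higher by 1.33 and Jun, Klf2 and Klf6 lower at -1.34, -1.31 and -1.05 (limma adjusted p = 5.09e-05, 1.76e-06, 1.18e-06 and 4.82e-07). In Th2 against Th1, Atf3 was higher by 1.95 and Jun and Klf6 lower at -1.46 and -1.12 (limma adjusted p = 1.16e-06, 6.87e-07 and 2.27e-07).

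The genes whose pattern was most like that of Hsp90ab1 over the 24 libraries, of 8436 compared, were Cad (Pearson r = 0.98), Gpatch4 (0.98), Phb2 (0.98), Mrps27 (0.98) and Fkbp4 (0.98). Cad encodes the enzyme that starts pyrimidine synthesis, Mrps27 a mitochondrial ribosomal protein, Phb2 a prohibitin and Fkbp4 a partner of HSP90. Hspd1 ranked 55th at 0.97. Over the 20 libraries of the time course alone, 1 of these 5, Cad, was among the closest 5 again. Cad was at 20.9 and 22.4 RPKM at rest, with means of 14.1 RPKM at 4 h and 102 RPKM at 24 h, so it too dipped and then climbed.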

How the data were processed

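RNA of mouse splenic CD4+ T cells was sequenced in 24 libraries. The RPKM values were deposited by the authors, and the processing notes of the submitters name BWA and GRCm38. The table has 22010 entries, and 1 without a name was left out. A gene was kept if its mean over the fitted libraries reached 1 RPKM, and log2(RPKM + 0.5) was fitted with limma 3.58.1 in R 4.3.3, with an intensity trend. The 18 cultures were fitted with condition and time, and the 20 libraries of the time course with time alone for comparisons with rest. P-values were adjusted by Benjamini and Hochberg over all genes tested, and a call needs an adjusted p under 0.05 and a 2-fold change. For single members between conditions, where none passed at 2-fold, a call means an adjusted p under 0.05 with no fold minimum. The steps were tested on simulated data. The members and lists were chosen with earlier results of these data known. Named genes are the members, up to 2 of each list with the largest change past the threshold each way at 4 h and 24 h against rest and at 24 h against 4 h, any past it between conditions, the 5 closest patterns among genes of at least 5 RPKM, and the top marker of each list. A few others were named after their values were seen. Ratios after actinomycin used a pseudocount of 0.1. Mapped reads ran from 17512385 to 33017133 per library, estimated from the steps of low values, and at a tolerance of 0.02 reads 30.4% of the 10872 genes with a mean of 1 RPKM or more were whole counts at some length. Alternatives were other pseudocounts (0.1 and 1), filters (none and 5 RPKM), scalings, no trend and left-out libraries, conditions and time points.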

Additional observations from a re-analysis of the deposited data

How the results depend on the processing

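The 16 tests of members over time in culture (from 4 h to 12 h and from 4 h to 24 h) kept their direction and side of the threshold under all 208 values of the alternatives, and 6 members rose in each. Of 785 alternative values of the 54 tests of other named genes, 772 kept the call and 13 lost it, with 0 reversed. Those lost were of Dnajb4 and Hspb6 (5 each) and Dnajb2, Dnajc15 and Klf6 (1 each), all close to 2-fold. With a filter of at least 5 RPKM, 375 genes passed at 24 h against 12 h (615 as reported) and 646 at 4 h against rest (1152), with fewer genes tested. The 5 members higher in Th2 than in Th0 with no fold minimum became 2 with no filter, 3 with quantile normalization, and 2 to 6 when a condition (the same fit as only both conditions compared), time point or library was left out. For Hspa1b in Th2 against Th0 the difference turned to 0.034 with quantile normalization and ran from -0.15 to 0.071 when time points or libraries were left out, 0.018 without 8 h, 0.071 without 24 h and 0.034 without the Th2 library at 24 h, a setting chosen after seeing the data. Hsp90ab1 in Th2 against Th0 gained a call without 24 h and without that library. The ratio of Hspa1b after actinomycin moved from 1.27 to 1.01 with a pseudocount of 0.5, and this gene passed the filter only through its 4 h library. The ratio of Hsp90ab1 after actinomycin turned to -0.0081 with median-of-ratios scaling and -0.26 with quantile normalization, or -0.28 less the median of all genes. Of the 10 closest patterns, 2 were shared when computed over the 20 libraries of the time course. The cause was not tested.

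Depth limits the late values of Hspa1a and Hspa1b, which rest on few reads, and reads shared with neighbours or pseudogenes limit those of Hspa1a, Hspa1b, Hspa8, Hsp90aa1, Hspd1 and Hspe1. The actinomycin times have 1 library each, and conditions at a given time 1 library each. What the different tags of resting and cultured cells in the labels stand for is not stated.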

Other observations

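Markers of further cells also fell in culture. B cell markers (most abundant Cd79b) summed to 75.3 and 84.7 RPKM at rest and to 19.3, 12.9 and 29.8 RPKM in Th0, Th1 and Th2 at 24 h, NK cell markers to 95.5 and 94.5 RPKM and then 34.7, 33.9 and 24.4, platelet markers to 31.2 and 34.2 RPKM and then 3.05, 2.66 and 3.96, and granulocyte markers to 17.3 and 15.0 RPKM and then 2.41, 1.31 and 3.35. Dendritic cell markers went from 57.5 and 59.8 RPKM to 79.9, 69.7 and 45.1 RPKM, most of it Bst2, a gene that T cells express as well. Of these 8 markers, 6 were lower at 24 h than at rest.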
